A study of Mus musculus with 24 samples.

Results

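Expression of 10 genes of the nuclear lamina and the LINC complex was followed in mouse liver. They were chosen by name as the lamins *Lmna*, *Lmnb1*, and *Lmnb2*, the prelamin A protease *Zmpste24*, the LEM-domain genes *Emd* and *Tmpo*, the SUN-domain genes *Sun1* and *Sun2*, and the nesprin genes *Syne1* and *Syne2*. All 10 were found among the 23972 genes counted. The 24 RNA-Seq libraries came from livers of female mice on a C57BL/6J background, 1 library per mouse. Controls were *Lmna* fl/fl mice without Adipoq-Cre, and LmnaADKO mice were *Lmna* fl/fl mice with Adipoq-Cre, which acts in adipocytes and in adipogenic progenitors of bone marrow but not in hepatocytes. There were 7 vehicle-treated controls, 3 FGF21-treated controls, 6 vehicle-treated LmnaADKO mice, and 8 FGF21-treated LmnaADKO mice. By the study's methods, the mice were 12 to 14 weeks old at the start, were housed at 22°C, and ate a 60% high-fat diet for 4 weeks before they were given an AAV8 vector for FGF21, a liver-derived metabolic hormone, or vehicle (PBS with Pluronic). Livers were collected 8 weeks later. All mice of both genotypes therefore carried the floxed *Lmna* alleles, all ate the high-fat diet, and control livers differ from LmnaADKO livers by a deletion made in another tissue.

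The nuclear lamina is a meshwork of intermediate filament proteins under the inner nuclear membrane. Lamins A and C are splice products of *Lmna*, and lamins B1 and B2 have genes of their own. Emerin (*Emd*) and the membrane forms of the LAP2 proteins (*Tmpo*) anchor lamina and chromatin to the membrane. SUN proteins cross the inner membrane, bind the lamina, and meet the KASH ends of nesprins in the space between the membranes, and this LINC complex couples the nucleus to the cytoskeleton. Prelamin A and the B-type lamins end in a motif that is farnesylated, and Zmpste24 removes the farnesylated tail of prelamin A. Inherited *LMNA* variants in humans can cause partial lipodystrophy.

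The *Lmna* gene lies on the minus strand at chr3:88480147-88509956 (GRCm38, GENCODE M21), and exons 10 and 11 are those flanked by loxP sites in these mice. Gene-level counts merge its transcripts. Because the lamin A and lamin C transcripts share most exons, the *Lmna* values below are sums over both, and they do not say which exons were read.

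Between 19863304 and 21510054 counts per library fell on genes. Values are given as CPM, from library sizes scaled by the TMM method, or as log2 fold changes ± SE from 1 edgeR quasi-likelihood fit of the 4 groups. A gene passed at an adjusted p under 0.05, by Benjamini-Hochberg over all 23972 genes. The labels call the treatment a rescue, which the study describes as FGF21. *Fgf21* itself ranged from 1.90 to 10.8 CPM in vehicle-treated controls, from 3.14 to 7.40 in FGF21-treated controls, from 4.63 to 10.6 in vehicle-treated LmnaADKO mice, and from 2.19 to 9.99 in FGF21-treated LmnaADKO mice, so counts on this gene did not set treated livers apart. In 3 libraries, the counts differed in how they depended on gene length. Each gene's log2 CPM, less its median over the libraries of the same genotype, was regressed on log2 exonic length over 9694 genes. This length slope was -0.33 in library 7 of the FGF21-treated LmnaADKO mice and -0.29 in library 3 of the FGF21-treated controls. It was -0.15 in library 3 of the vehicle-treated controls, against -0.11 to 0.13 in the others. Because it is relative to the same genotype, the slope does not measure a length dependence that differs between genotypes. Counts came from whole liver, where a change in the share of a cell type cannot be told apart from a change in RNA per cell.

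All 10 genes were detected in every library. Per kilobase of exon, *Sun2* was highest, with a median over the 24 libraries of 16.5 CPM per kb. *Zmpste24* and *Emd* followed with 7.37 and 6.26 CPM per kb, and their order held in 17 of 24 libraries. *Lmna* had 3.73 CPM per kb and was below *Emd* in 23 libraries. *Tmpo* (2.49) and *Lmnb2* (2.01) came next, each below its neighbour in 23 libraries, and *Sun1* (1.61) and *Lmnb1* (1.59) could not be ordered, since *Sun1* was higher in only 15 of 24 libraries. The nesprin genes were lowest per length, with 0.458 for *Syne2* and 0.335 for *Syne1*. *Sun2* exceeded *Sun1* per length in every library, and the ratio of *Sun1* to *Sun2* ran from 0.0551 to 0.128. These figures depend on the exonic length annotated for each gene, which is 40491 bp for *Syne1* and 26726 bp for *Syne2*. That length merges all transcripts of a gene. The longest single transcript has 4441 of 10998 bp for *Tmpo*, 4134 of 7596 bp for *Sun1*, 3948 of 5838 bp for *Lmna*, and 2843 of 2962 bp for *Lmnb1*. The order among these genes could therefore differ with another measure of length.

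**Figure D1:**
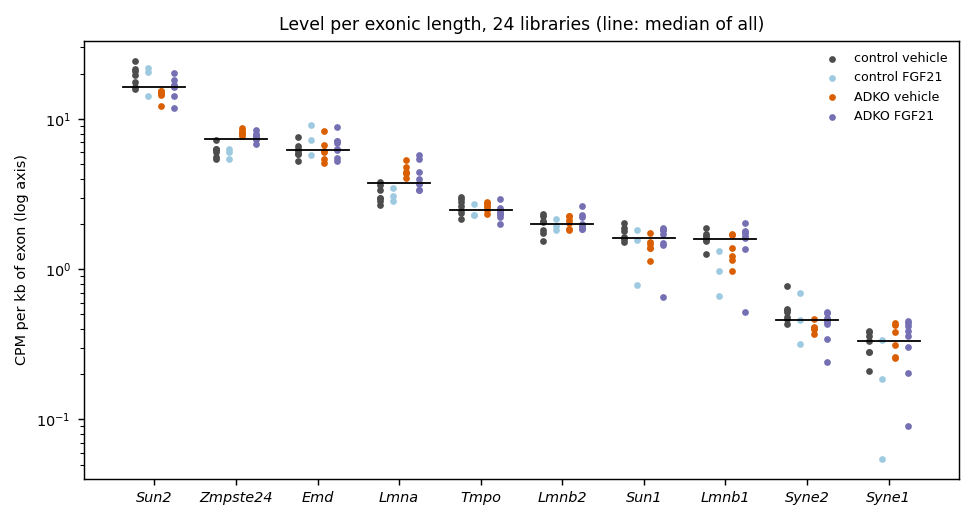
Level per exonic length of the 10 genes in each of the 24 libraries, on a log axis in CPM per kb of exon, coloured by group, with a line at the median of all libraries. *Sun2* is highest with a median of 16.5 and the nesprin genes *Syne2* and *Syne1* are lowest with 0.458 and 0.335.

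With vehicle, 3 of the 10 genes passed between LmnaADKO mice and controls. *Lmna* and *Zmpste24* were higher in LmnaADKO livers, *Sun2* was lower, and the other 7 did not pass. Of all genes, 15.1% passed in this comparison, 8.35% in the higher and 6.76% in the lower direction, and 24.4% passed among genes whose log2 CPM averaged 0 or more, which include the 10 described here. The share of the 10 genes is thus close to that of other expressed genes. None of the 3 reached a fold change of 1.5, the study's added threshold, which 8.48% of all genes passed. This share was computed over all genes only, not over expressed genes alone. The same holds for the shares given below for an unadjusted p under 0.05 and for groups that did not overlap.

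*Lmna*, the gene floxed in every mouse and deleted in adipose cells of LmnaADKO mice, was not lower in LmnaADKO liver. The lowest, median, and highest values were 15.7, 17.4, and 22.1 CPM in vehicle-treated controls and 23.6, 25.9, and 31.0 CPM in vehicle-treated LmnaADKO mice. All 6 LmnaADKO libraries were above all 7 controls. Means were 18.6 ± 2.47 CPM (SD, n = 7) and 26.7 ± 2.57 CPM (SD, n = 6), and the log2 fold change was 0.52 ± 0.12 (edgeR adjusted p = 0.00322). Groups that did not overlap were found for 7.95% of all genes. In FGF21-treated controls the 3 libraries had 16.7, 17.9, and 20.1 CPM, and in FGF21-treated LmnaADKO mice the lowest, median, and highest had 19.6, 22.6, and 33.7 CPM. Of these 8 LmnaADKO libraries, 6 were above all 3 controls, and means were 24.7 ± 5.40 and 18.3 ± 1.76 CPM. The log2 fold change with FGF21 was 0.44 ± 0.15 and did not pass (edgeR adjusted p = 0.107, unadjusted p = 0.00734). With FGF21, 3 of the 10 genes had an unadjusted p under 0.05, *Lmna*, *Lmnb1*, and *Zmpste24*, against 16.9% of all genes.

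*Lmnb1* and *Lmnb2*, the B-type lamin genes, did not pass in any comparison of all libraries. *Lmnb1* was the least counted of the 10, with 26 to 131 counts per library. Its lowest, median, and highest values were 3.75, 4.81, and 5.58 CPM in vehicle-treated controls and 2.91, 3.86, and 5.09 CPM in vehicle-treated LmnaADKO mice, and the groups overlapped (log2 fold change -0.25 ± 0.20, edgeR adjusted p = 0.464). FGF21-treated controls had 2.90, 3.90, and 1.98 CPM, and FGF21-treated LmnaADKO mice had 1.53, 5.06, and 6.02 CPM as lowest, median, and highest. All but 1 of the 8 LmnaADKO libraries were above the 3 controls, and the remaining one was below them (log2 fold change 0.66 ± 0.26, edgeR adjusted p = 0.166). Without that library, number 7 and the one with the lowest length slope, the log2 fold change was 0.78 ± 0.19 and passed (edgeR adjusted p = 0.0114). Of 11 fits without 1 library, only this 1 passed. The control with 1.98 CPM also has a low length slope. With all 3 libraries of low slope left out, the log2 fold change was 0.59 ± 0.20 and did not pass (edgeR adjusted p = 0.131). *Lmnb2* kept within 6.58 to 11.2 CPM over all libraries, and its log2 fold changes between genotypes were 0.06 ± 0.11 with vehicle and 0.08 ± 0.13 with FGF21. The ratio of *Lmna* to the sum of both B-type genes, per length, was 0.744 to 1.11 in vehicle-treated controls and 1.15 to 1.64 in vehicle-treated LmnaADKO mice. With FGF21 it was 0.885 to 1.38 in controls and 0.869 to 2.25 in LmnaADKO mice, where the groups overlapped. The ratios were not tested.

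*Zmpste24*, the protease that matures prelamin A, was the only one of the 10 that passed between genotypes with both treatments. Vehicle-treated controls had 38.6, 44.5, and 51.6 CPM as lowest, median, and highest, and vehicle-treated LmnaADKO mice had 55.5, 57.7, and 62.3 CPM. All 6 LmnaADKO libraries were above all 7 controls, with means of 58.3 ± 2.47 and 44.0 ± 4.25 CPM and a log2 fold change of 0.40 ± 0.078 (edgeR adjusted p = 0.000601). FGF21-treated controls had 45.3, 43.2, and 38.6 CPM, and FGF21-treated LmnaADKO mice had 49.1, 54.8, and 60.1 CPM. All 8 LmnaADKO libraries were above all 3 controls here too, with means of 54.7 ± 3.35 and 42.4 ± 3.42 CPM and a log2 fold change of 0.37 ± 0.098 (edgeR adjusted p = 0.0277). With FGF21, 3.85% of all genes passed, 2.14% in the higher direction, and groups did not overlap for 5.35%. This second call did not hold in 4 of the alternative fits, with edgeR adjusted p of 0.0536 to 0.276. It was also lost without library 2 or 3 of the FGF21-treated controls (edgeR adjusted p = 0.0905 and 0.194). The same was true without library 5 of the FGF21-treated LmnaADKO mice (edgeR adjusted p = 0.0508). Library 3 of these controls, the lowest with 38.6 CPM, has a low length slope. With the length slope as a covariate, the call held (0.36 ± 0.078, edgeR adjusted p = 0.00352).

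*Emd* and *Tmpo*, the genes of emerin and the LAP2 proteins, were among the steadiest of the 10 between genotypes. *Emd* had 13.3, 15.5, and 19.1 CPM in vehicle-treated controls and 12.9, 15.3, and 21.1 CPM in vehicle-treated LmnaADKO mice as lowest, median, and highest. With FGF21, *Emd* had 14.6, 18.2, and 22.8 CPM in the 3 controls and 13.3, 16.6, and 22.3 CPM in LmnaADKO mice. The log2 fold changes between genotypes were 0.02 ± 0.13 with vehicle and -0.14 ± 0.15 with FGF21. *Emd*, the shortest gene here with 2517 bp of exon, had its group's highest value in each of the 3 libraries with the lowest length slopes. The next shortest, *Lmnb1* with 2962 bp, went the other way in the FGF21-treated libraries among them. It was its group's lowest in library 7 of the LmnaADKO mice (1.53 CPM) and library 3 of the controls (1.98 CPM). *Tmpo* had 23.7, 29.0, and 33.5 CPM in vehicle-treated controls and 25.8, 29.1, and 30.9 CPM in vehicle-treated LmnaADKO mice, with a log2 fold change of -0.01 ± 0.093. With FGF21 its values were 30.0, 25.2, and 25.1 CPM in controls and 22.1, 26.2, and 32.6 CPM in LmnaADKO mice, with a log2 fold change of -0.01 ± 0.11.

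*Sun2*, the SUN-domain gene with most counts in these livers (1087 to 2886 per library), fell with vehicle. Controls had 86.5, 107, and 133 CPM as lowest, median, and highest, and LmnaADKO mice had 66.4, 80.6, and 83.5 CPM. All 6 LmnaADKO libraries were below all 7 controls, with means of 78.7 ± 6.30 and 105.7 ± 16.6 CPM and a log2 fold change of -0.43 ± 0.12 (edgeR adjusted p = 0.0158). With FGF21 the controls had 111, 119, and 77.7 CPM and LmnaADKO mice had 63.9, 90.0, and 109.7 CPM, and the groups overlapped. The log2 fold change was -0.21 ± 0.15 (edgeR adjusted p = 0.475). The lowest values of the 2 groups, 77.7 and 63.9 CPM, came from libraries with low length slopes. With the 3 libraries of low slope left out, the log2 fold change was -0.32 ± 0.13 and did not pass (edgeR adjusted p = 0.226). *Sun1*, its paralog, had 11.5, 12.5, and 15.5 CPM in vehicle-treated controls and 8.65, 10.9, and 13.3 CPM in vehicle-treated LmnaADKO mice. Of these 6 LmnaADKO libraries, 5 were below all controls, but the log2 fold change of -0.26 ± 0.18 did not pass (edgeR adjusted p = 0.389). With FGF21, *Sun1* had 13.8, 11.9, and 6.00 CPM in controls and 4.94, 13.4, and 14.2 CPM in LmnaADKO mice, and both lowest values came from libraries with low length slopes.

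**Figure D2:**
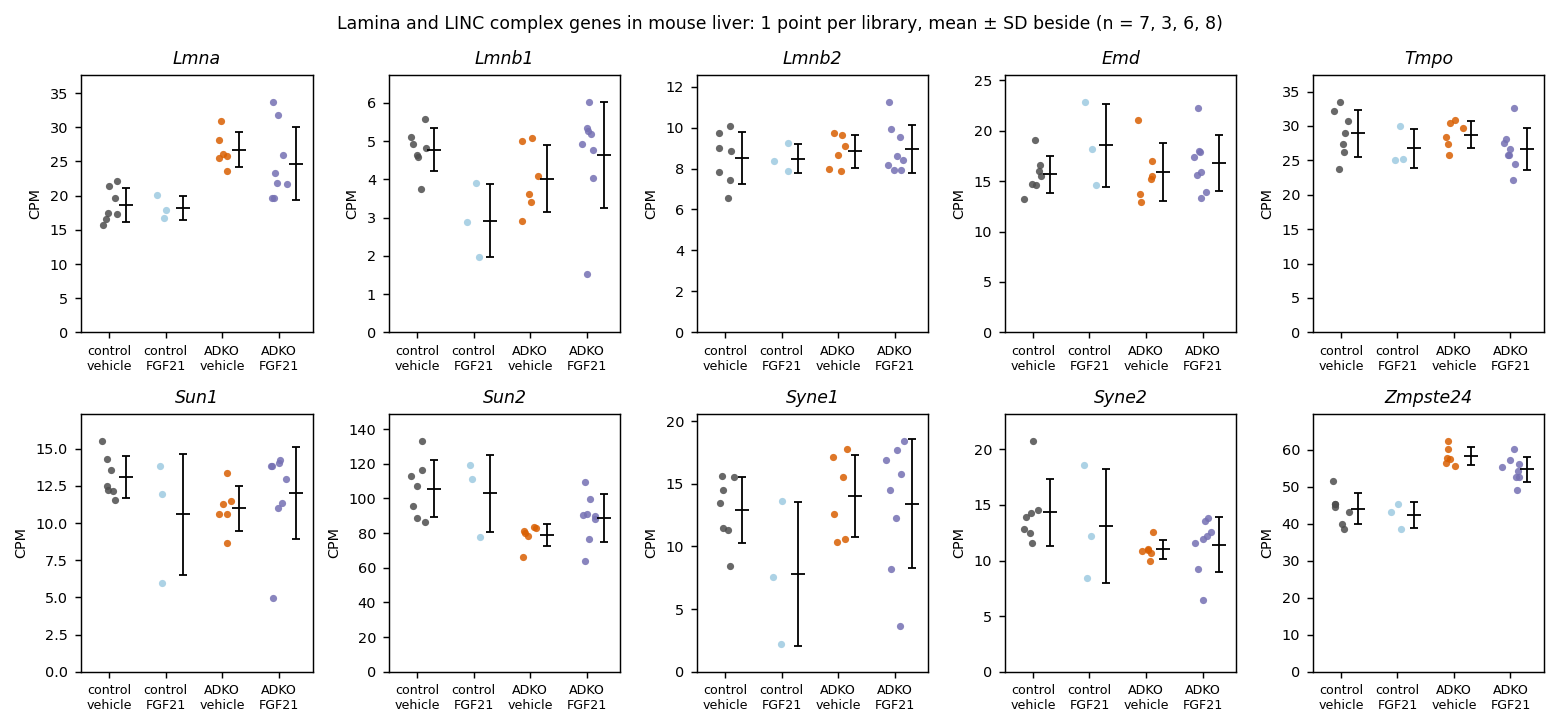
CPM of the 10 genes in each library, with 1 point per library and the mean ± SD beside it, for vehicle- and FGF21-treated controls (n = 7 and 3) and LmnaADKO mice (ADKO, n = 6 and 8), each panel with its own axis from 0. With vehicle, the LmnaADKO points lie above all controls for *Lmna* and *Zmpste24* and below all controls for *Sun2*.

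*Syne1* and *Syne2* encode nesprin-1 and nesprin-2, very large proteins that reach from the nuclear envelope to actin. *Syne1* had 8.46, 13.5, and 15.7 CPM in vehicle-treated controls and 10.4, 14.1, and 17.7 CPM in vehicle-treated LmnaADKO mice, and the groups overlapped (log2 fold change 0.12 ± 0.32, edgeR adjusted p = 0.875). FGF21-treated controls had 13.6, 7.54, and 2.21 CPM, a spread wider than that between any of the group means, and FGF21-treated LmnaADKO mice had 3.64, 15.1, and 18.4 CPM. The log2 fold change of 0.78 ± 0.41 did not pass (edgeR adjusted p = 0.355), and it was 1.45 without library 1 of the FGF21-treated controls and 0.34 without library 3. *Syne2* had 11.6, 13.9, and 20.7 CPM in vehicle-treated controls and 9.98, 10.9, and 12.6 CPM in vehicle-treated LmnaADKO mice. Of these 6 LmnaADKO libraries, 5 were below all controls, and the log2 fold change was -0.38 ± 0.16, with an unadjusted edgeR p of 0.0255 and an edgeR adjusted p of 0.120. With *Syne2* counted, 4 of the 10 genes had an unadjusted p under 0.05 here, against 27% of all genes, a share not computed for expressed genes alone. *Syne2* passed in 3 alternative fits, which had only the groups compared (adjusted p = 0.0194), the length slope as a covariate (adjusted p = 0.0023), or the 3 libraries with low slopes left out (adjusted p = 0.0193). With FGF21, *Syne2* had 18.6, 12.2, and 8.44 CPM in controls and 6.46, 12.1, and 13.8 CPM in LmnaADKO mice (log2 fold change -0.20 ± 0.19).

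The longest annotated transcripts of *Syne1* and *Syne2* are 27908 and 21704 bp, and both genes were at their group's lowest in the FGF21-treated libraries with low length slopes. The 3 libraries with the lowest slopes had 3.64, 2.21, and 8.46 CPM of *Syne1*, each the lowest of its group. With the length slope as a covariate, the difference between genotypes with FGF21 was 0.76 ± 0.19 for *Syne1* and passed (edgeR adjusted p = 0.0129). That of *Lmna* was 0.45 ± 0.14 and passed (edgeR adjusted p = 0.0479), so that 3 of the 10 genes were called. The share of all genes called in that fit was not computed. With the 3 libraries left out, 0 of the 10 were called with FGF21. The difference of *Syne1* was then 0.49 ± 0.27 (edgeR adjusted p = 0.426), whereas that of *Lmna* was 0.46 ± 0.16 (edgeR adjusted p = 0.121), close to its value over all libraries.

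**Figure D3:**
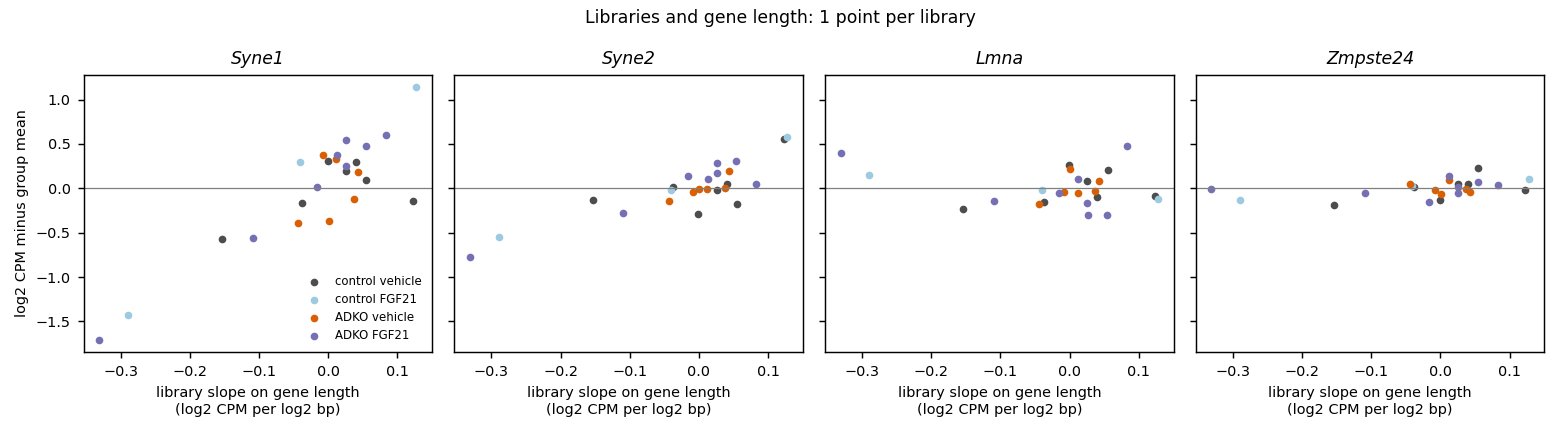
Log2 CPM of *Syne1*, *Syne2*, *Lmna*, and *Zmpste24* in each library minus its group mean, against the library's length slope, with 1 point per library coloured by group. The slope is of log2 CPM, less each gene's median within genotype, on log2 exonic gene length. The libraries with slopes of -0.33 and -0.29 are low for *Syne1* and *Syne2* and are not low for *Lmna*. For *Zmpste24*, the library with a slope of -0.29 is the lowest of its group (38.6 CPM), and the one with -0.33 is not (54.3 CPM).

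FGF21 did not change any of the 10 genes past the threshold in either genotype. In controls, 0 of the 10 and 13 of all genes (0.0542%) passed, and in LmnaADKO mice 0 of the 10 and 0 of all genes (0%) passed by edgeR. At an unadjusted p under 0.05, there were 1 of the 10 and 6.16% of all genes in controls, and 0 of the 10 and 6.71% of all genes in LmnaADKO mice. The 1 gene was *Lmnb1*, with 2 of 3 FGF21-treated controls below all 7 vehicle-treated controls (log2 fold change -0.70 ± 0.26, edgeR adjusted p = 0.681). *Syne1* had a difference of similar size in controls, -0.72 ± 0.42 (edgeR adjusted p = 0.771), which was -1.39 without library 1 of the FGF21-treated controls and -0.29 without library 3. In LmnaADKO mice the 10 log2 fold changes ran from -0.11 to 0.21. For *Sun2*, 6 of 8 FGF21-treated LmnaADKO libraries were above all 6 vehicle-treated ones and 1 was below them (log2 fold change 0.17 ± 0.12, edgeR adjusted p = 0.763).

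The effect of FGF21 was not shown to differ between genotypes for any of the 10 genes. In the interaction of genotype and treatment, 0 of the 10 and 1 of all genes (0.00417%) passed, and 1 of the 10 and 4.86% of all genes had an unadjusted p under 0.05. The largest value was that of *Lmnb1*, at 0.91 ± 0.33 with an unadjusted edgeR p of 0.00964 and an edgeR adjusted p of 0.984. For *Lmna*, *Zmpste24*, and *Sun2*, the interaction was -0.08 ± 0.19, -0.04 ± 0.12, and 0.21 ± 0.19. That the calls of *Lmna* and *Sun2* were made with vehicle and not with FGF21 does not by itself show that the genotype difference depends on treatment.

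**Figure D4:**
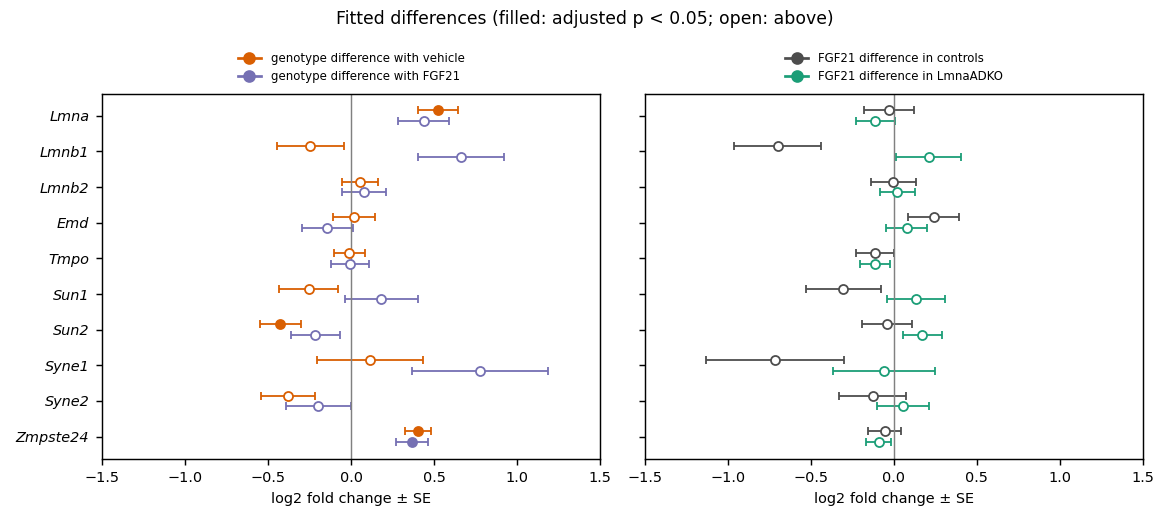
Log2 fold changes ± SE of the 10 genes, LmnaADKO against control with vehicle and with FGF21 (left) and FGF21 against vehicle in controls and in LmnaADKO mice (right), with filled points where the edgeR adjusted p is under 0.05. Filled points are *Lmna* (0.52), *Sun2* (-0.43), and *Zmpste24* (0.40) with vehicle and *Zmpste24* (0.37) with FGF21.

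The mice are numbered in the labels in a 3-digit and a 4-digit series, which nearly coincide with genotype under vehicle, with 6 of 7 controls in the 3-digit and 5 of 6 LmnaADKO mice in the 4-digit series. The single control with a 4-digit number had 19.6 CPM of *Lmna* and 45.3 CPM of *Zmpste24*, below the 23.6 and 55.5 CPM that were the lowest of the 5 LmnaADKO mice of that series. The single LmnaADKO mouse with a 3-digit number had 25.7 CPM of *Lmna* and 57.4 CPM of *Zmpste24*, above the 22.1 and 51.6 CPM that were the highest of the 6 controls of that series. For *Sun2*, the same animals had 86.5 CPM against 83.5 CPM as the highest in the 4-digit series and 66.4 CPM against 88.8 CPM as the lowest in the 3-digit series. With the series as a covariate, the log2 fold changes with vehicle were 0.45 for *Lmna* (edgeR adjusted p = 0.0444), 0.39 for *Zmpste24* (adjusted p = 0.00799), and -0.35 for *Sun2*, which no longer passed (adjusted p = 0.156).

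The 200 bases from 250 to 51 bases before a RefSeq start are shown for the 3 genes that passed with vehicle, with motif matches in capitals. For *Lmna* this start, at 88503352, lies within the annotated gene. On the minus strand that gene begins at 88509956, so the *Lmna* window is inside the gene and not upstream of it. The sequences are of GRCm38.p6, on the minus strand, at chr3:88503403-88503602 (*Lmna*), chr4:121098261-121098460 (*Zmpste24*), and chr15:79742587-79742786 (*Sun2*), and overlap no annotated exon of these genes.
Lmna: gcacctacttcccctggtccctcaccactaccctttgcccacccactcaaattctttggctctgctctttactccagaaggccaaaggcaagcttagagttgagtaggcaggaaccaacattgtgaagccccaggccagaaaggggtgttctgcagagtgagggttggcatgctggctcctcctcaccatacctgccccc
Zmpste24: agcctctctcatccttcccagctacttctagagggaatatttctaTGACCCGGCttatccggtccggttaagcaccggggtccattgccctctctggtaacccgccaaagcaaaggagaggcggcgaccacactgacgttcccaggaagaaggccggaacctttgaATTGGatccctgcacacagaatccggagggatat
Sun2: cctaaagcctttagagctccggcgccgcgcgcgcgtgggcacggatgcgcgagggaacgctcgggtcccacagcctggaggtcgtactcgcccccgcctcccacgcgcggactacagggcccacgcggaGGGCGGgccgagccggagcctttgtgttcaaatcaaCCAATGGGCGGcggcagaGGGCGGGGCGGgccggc
Motifs were searched on both strands, after the values were known. Over the same window of 32851 RefSeq promoters, GGGCGG was found in 24.6%, CCAAT in 28.4%, TATAAA in 9.14%, CACGTG in 4.34%, TGACGTCA in 0.828%, TGACNNNGC in 7.66%, and TGANTCA in 5.57%. The *Sun2* window holds GGGCGG at 121, 80, 67, and 62 bases before the start, the last pair sharing a base, and CCAAT at 85 bases. The *Zmpste24* window holds TGACNNNGC at 205 bases and CCAAT, on the other strand, at 84 bases. The *Lmna* window at this start holds none of the 7. A further RefSeq start of *Lmna* lies downstream and is not shown.

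Of 18 genes listed as partners of the lamina and the LINC complex, 2 were higher with vehicle, 3 were lower, and 13 did not pass. The 27.8% that passed compare with 15.1% of all genes and 24.4% of genes whose log2 CPM averaged 0 or more, and the median log2 fold change was 0.036 against 0.00265 over all genes. *Tmem43*, an inner nuclear membrane protein that binds emerin, rose from 9.48 to 12.4 CPM in controls to 16.4 to 35.7 CPM in LmnaADKO mice (log2 fold change 1.23 ± 0.16, edgeR adjusted p = 5.35e-06), a larger change than that of any of the 10. *Dpy19l1* rose from 25.0 ± 2.90 to 35.7 ± 2.05 CPM (0.52 ± 0.099, edgeR adjusted p = 0.000496). *Prr14*, which tethers heterochromatin to the lamina, fell from 32.9 ± 2.48 to 23.6 ± 1.84 CPM (-0.48 ± 0.096, edgeR adjusted p = 0.000811). *Tmem201*, an inner membrane protein that binds SUN proteins and lamins, fell from 21.1 ± 1.53 to 15.3 ± 1.25 CPM (-0.47 ± 0.099, edgeR adjusted p = 0.00147). *Nemp1* also fell (-0.45 ± 0.15, edgeR adjusted p = 0.0451), and is named because the count is small. With FGF21, 3 of the 18 were higher and 0 were lower, or 16.7% against 3.85% of all genes and 6.58% of those whose log2 CPM averaged 0 or more. The count was 2 with the number series as a covariate and 2 without the 3 libraries of low length slope. *Tmem43* (0.71 ± 0.20, edgeR adjusted p = 0.0458) and *Dpy19l1* (0.62 ± 0.12) were again among them. The other was *Syne3*, the gene of nesprin-3, named after its values were seen, with 1.05 to 2.30 CPM in controls and 2.94 to 5.97 CPM in LmnaADKO mice (log2 fold change 1.20 ± 0.25, edgeR adjusted p = 0.00479). With vehicle *Syne3* did not differ past the threshold (0.01 ± 0.19).

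Of 28 genes of the nuclear pore complex, 4 were higher and 1 was lower with vehicle, or 17.9%, against 15.1% of all genes and 24.4% of those whose log2 CPM averaged 0 or more. *Sec13*, which also serves in COPII vesicle coats, rose from 47.6 ± 4.78 to 68.3 ± 6.19 CPM (log2 fold change 0.52 ± 0.098, edgeR adjusted p = 0.000422). *Aaas* rose by 0.74 ± 0.14 and *Nup93*, an inner ring scaffold gene, by 0.79 ± 0.18 on the log2 scale, and *Nup210*, a membrane nucleoporin gene, fell by 0.56 ± 0.14. The last was *Nup205*, higher by 0.34 ± 0.11. With FGF21, 1 of the 28 passed, *Sec13*, at 0.50 ± 0.12. With vehicle, the counts rose to 8 of 18 partners and 10 of 28 pore genes when the length slope was a covariate. The share of all genes that passed in that fit was not computed, so these rises cannot be set against it. Among 4 genes of the farnesyltransferase, the protease Rce1, and the methyltransferase that act on the lamin tail, only *Icmt*, the methyltransferase of the farnesylated cysteine, passed with vehicle, from 33.7 ± 3.73 to 41.5 ± 3.00 CPM (0.30 ± 0.095, edgeR adjusted p = 0.0276). It did not pass with the number series as a covariate. *Fntb* (0.31 ± 0.14), *Fnta* (-0.14 ± 0.091), and *Rce1* (-0.15 ± 0.15) did not pass, and none of the 4 passed with FGF21.

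Some markers of other cell types and of dividing cells passed between genotypes with vehicle, as did *Lmna*, *Zmpste24*, and *Sun2*. The share passing was 81.8% for proliferation genes and 50% for stellate or fibroblast and for endothelial markers. These compare with 15.1% of all genes and 24.4% of those whose log2 CPM averaged 0 or more. The 33.3% of hepatocyte (2 of 6), 20% of cholangiocyte, and 14.3% of macrophage markers that passed were near those shares. Of 22 proliferation genes, 18 were higher and 0 lower, with a median log2 fold change of 1.24, and their summed level was 59.7 to 78.6 CPM in controls and 79.6 to 135 CPM in LmnaADKO mice. The licensing genes *Mcm3* (0.75 ± 0.11) and *Mcm2* (1.28 ± 0.22) and the cell cycle factor *E2f1* (1.22 ± 0.18) were among them. With FGF21, 4 of the 22 were higher, or 18.2%, against 3.85% of all genes and 6.58% of those whose log2 CPM averaged 0 or more. Of 8 stellate cell and fibroblast markers, 4 were higher (*Lrat*, *Col3a1*, *Dcn*, and *Acta2*), with sums of 227 to 325 CPM in controls and 304 to 447 CPM in LmnaADKO mice. The other 4 did not pass, with log2 fold changes of 1.46 ± 0.51 for *Col1a1*, 0.21 ± 0.17 for *Pdgfrb*, -0.20 ± 0.093 for *Reln*, and -0.27 ± 0.12 for *Des*. Of 5 cholangiocyte markers, 1 was higher, *Spp1*, from 32.7 ± 7.28 to 116 ± 38.5 CPM. The list's sums, 27.0 to 51.2 CPM in controls and 85.8 to 196 CPM in LmnaADKO mice, were mostly *Spp1*, and *Krt19*, *Krt7*, *Epcam*, and *Sox9*, each with a mean of at most 2.85 CPM in both groups, did not pass. Of 6 hepatocyte markers, 2 were lower (*Cps1* and *Serpina1c*). Sums were 76655 to 134317 CPM in controls (median 110964) and 66576 to 101450 CPM in LmnaADKO mice (median 87257). These sums were mostly *Alb*, which did not pass (log2 fold change -0.33 ± 0.17, edgeR adjusted p = 0.196). Of 6 endothelial markers, 2 were higher and 1 lower, of 7 macrophage markers 1 was higher, and of 6 lymphocyte markers 0 passed. Adipocyte markers, from the tissue where *Lmna* is deleted, summed to at most 3.95 CPM in any library, 0 of 5 passed, and *Lep* was at 0 in all vehicle-treated libraries. The part of these cell types in the results for *Lmna*, *Zmpste24*, and *Sun2* was not tested.

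Across the 24 libraries, the genes whose log2 CPM was most like that of *Lmna*, of 12491 ranked, were *Srxn1* (Pearson r = 0.94), *Ttc39a* (0.93), *Entpd2* (0.93), *Fyb2* (0.92), and *Anxa5* (0.92). With group means removed, r was 0.95 for *Srxn1*, a gene of the antioxidant response, and 0.81 to 0.86 for the others. Of the 9 other genes described here, *Zmpste24* was nearest to *Lmna* with r = 0.69, which was 0.07 with group means removed, and *Sun2* was farthest with r = -0.65. With group means removed, *Sun2* was at -0.37, and *Sun1* (-0.50) and *Syne2* (-0.48) were farther. For *Syne1* the most like were *Kdm2a* (0.96), *Zfp217* (0.94), *9930021J03Rik* (0.93), *Rassf8* (0.93), and *Ankrd52* (0.93), and without the 3 libraries of low length slope these values were 0.68 to 0.80. For *Lmnb1* they were *Atp6v1b2* (0.86), *Rfwd3* (0.85), *Ndst1* (0.84), *Trim14* (0.83), and *Zc3h12d* (0.82), and 0.49 to 0.73 without those libraries. The correlation of *Lmnb1* with *Sun1* was 0.78 over all libraries and 0.26 without them. These are descriptions over libraries that share group, genotype, and depth.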

How the data were processed

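The authors deposited counts of reads per gene for 24 polyA-selected, strand-specific liver libraries, without normalization. The submitters' processing notes name cutadapt 4.8, FastQC 0.11.8, STAR 2.7.8a, RSEM 1.3.3, and GRCm38 without saying what each did. If RSEM made the values, they are rounded estimates, and reads shared between overlapping or similar genes were divided by its model. All values were whole numbers and 0 columns lacked a sample.

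Groups were taken from the labels, and libraries are numbered within groups. The labels state no cages or batches, and by the study's methods the mice were housed in groups. The p-values treat each mouse as independent. In the main fit, a difference of cage, batch, or number series between groups is not separated from the group differences. The 67 pairs of replicates were checked for duplicates (chi-square per degree of freedom 14.1 to 196), and none was merged. Counts of all 23972 genes were tested with edgeR 4.0.16 in R 4.3.3 (TMM, estimateDisp, robust glmQLFit, glmQLFTest) in 1 fit of the 4 groups, with Benjamini-Hochberg adjustment. The fit was tested on simulated data. Exonic lengths and coordinates came from GENCODE M21, and CPM per kb divide CPM by the union of exons. Of the nuclear pore list, Nup58 was not found by symbol. Alternatives were DESeq2 1.42.0, its size factors, filterByExpr (14699 genes), only the groups compared, the number series or the length slope as a covariate, omission of 3 libraries or of each library in turn, only 4-digit numbers, and an added fold threshold of 1.5. The 10 genes and all lists were chosen with earlier results of these data known. All 10 are described, and up to 4 genes per list are named by smallest p with vehicle among those passing, with exceptions named where they occur. The genes most like *Lmna*, *Lmnb1*, and *Syne1* are the 5 with the highest r among genes whose log2 CPM averaged 0 or more. Of gene overlaps in the annotation, those present in the table were Gm16575 with *Sun2* and Gm14686 with *Emd*, with mean counts of 0.25 and 2.38.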

Additional observations from a re-analysis of the deposited data

Results flagged for a closer look

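In 30 groups of 6 to 8 libraries (each of the 10 genes in 3 groups), the highest or lowest library was set against the others of its group by Dixon's ratio, and 4 stood apart, where chance alone would pick about 1 in 20 groups. Library 7 of the FGF21-treated LmnaADKO mice, which has the lowest slope on gene length, was far below the other 7 for *Lmnb1* (1.53 CPM) and for *Sun1* (4.94 CPM). Library 1 of the vehicle-treated LmnaADKO mice was below the other 5 for *Sun2* (66.4 CPM). Library 6 of the vehicle-treated controls was above the other 6 for *Syne2* (20.7 CPM). Without library 7, the genotype difference of *Lmnb1* with FGF21 was 0.78 ± 0.19 and passed (edgeR adjusted p = 0.0114). With all 3 libraries of low slope left out, that difference was 0.59 ± 0.20 and did not pass (edgeR adjusted p = 0.131). The causes were not tested.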

How the results depend on the processing

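With vehicle, 3 of the 10 genes passed in every fit without 1 library, and *Lmna* (0.47 to 0.57), *Zmpste24* (0.38 to 0.45), and *Sun2* (-0.47 to -0.36) kept their calls. Requiring a fold of 1.5 left 0. With FGF21, the count was 0 to 2 over fits without 1 library, 3 with the length slope, and 0 with only the groups compared, the number series, the 3 libraries left out, only 4-digit numbers, or the added fold. *Zmpste24* with FGF21 was 0.36, 0.38, 0.31, and 0.35 under the first 4 of those 5 (adjusted p = 0.164, 0.0536, 0.0874, and 0.276) and 0.30 to 0.42 without 1 library. *Sun2* with vehicle was -0.35 and did not pass with the number series. In the FGF21 comparisons and the interaction, 0 of the 10 passed in every fit. Only-4-digit fits could not be made with vehicle or in controls, since 1 control with vehicle has such a number.

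Partners passing with vehicle were 8 with the length slope and 1 with the added fold, pore genes 10 and 2, and pore genes with FGF21 2 and 0. The share of all genes passing was not computed for any of the refits. *Icmt* was lost with vehicle under the number series (0 of 4) and the fold (0 of 4). Proliferation genes with FGF21 were 1 with the number series and 1 without the 3 libraries.

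Signs changed in 27 values of genes that did not pass. With the number series, they were *Emd* (-0.026) and *Tmpo* (0.053) between genotypes with vehicle, *Lmnb2* (0.10) and *Sun2* (0.052) by FGF21 in controls, *Lmnb2* (-0.022) by FGF21 in LmnaADKO mice, and the interactions of *Lmna* (0.030), *Lmnb2* (-0.13), and *Tmpo* (-0.11). With the length slope, they were *Lmnb2* (0.049) and *Sun2* (0.039) in controls, *Syne1* (0.011) in LmnaADKO mice, and the interactions of *Lmnb2* (-0.00407) and *Tmpo* (-0.044). Without the 3 libraries, they were *Sun2* (0.10) and *Syne2* (0.077) in controls and *Syne1* (0.079) in LmnaADKO mice. With only 4-digit numbers, they were *Lmnb2* (-0.011) between genotypes with FGF21, and *Lmnb2* (-0.050), *Sun1* (-0.021), and *Syne2* (-0.00365) by FGF21 in LmnaADKO mice. *Lmnb2* in controls and the interaction of *Tmpo* also changed sign with DESeq2 (0.00916 and -0.011), its size factors (0.00967 and -0.012), and filterByExpr (0.00234 and -0.00194), and *Lmnb2* with only the groups compared (0.000721).

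Without 1 library, signs changed for genes that did not pass. Between genotypes, the ranges were -0.080 to 0.075 (*Emd*) and -0.051 to 0.029 (*Tmpo*) with vehicle, and -0.29 to 0.030 (*Emd*), -0.062 to 0.083 (*Tmpo*), -0.10 to 0.42 (*Sun1*), and -0.43 to 0.14 (*Syne2*) with FGF21. By FGF21 in controls they were -0.11 to 0.033 (*Lmna*), -0.068 to 0.048 (*Lmnb2*), -0.16 to 0.12 (*Sun2*), -0.47 to 0.10 (*Syne2*), and -0.11 to 0.00461 (*Zmpste24*), and in LmnaADKO mice -0.034 to 0.050 (*Lmnb2*) and -0.14 to 0.084 (*Syne1*). For the interaction they were -0.036 to 0.088 (*Lmnb2*), -0.31 to 0.018 (*Emd*), -0.050 to 0.092 (*Tmpo*), -0.047 to 0.52 (*Syne2*), and -0.095 to 0.015 (*Zmpste24*).

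No paired analysis was possible because every animal number in the labels differs and the replicate numbers only name libraries. Depth limits *Lmnb1* most, with as few as 26 counts, and 3 FGF21-treated controls limit each comparison that uses them.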
